A study of Malus domestica with 18 samples.

Results

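Transcription factors were followed here in the fruit skin of "Golden Delicious" apple, bagged or uncovered, from young to late fruit. The transcription factor genes were taken from the deposited expression table by the name of the best protein match of each gene. A gene was a member if that name held transcription factor, WRKY, MYB, NAC domain, ethylene-responsive, homeobox, zinc finger, bHLH or MADS, and none of chloroplastic, kinase or ubiquitin. This gave 185 of the 2856 genes of the table, and the exclusion words removed 0. The best match was an apple protein for 154 members and a protein of another species for 31. Read from these names, the largest families were MYB with 37 members, WRKY with 26, bHLH with 23, NAC with 22, ethylene response factors (ERF) with 14 and C2H2 zinc fingers with 12. Some zinc finger matches, such as a peptidase and a BED-type protein, are not clear transcription factors, and all 3 members of that mixed group lay below the level needed for a test.

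Transcription factors bind short DNA motifs and switch the genes beside them on or off, and a family shares one type of DNA-binding domain. "Golden Delicious" is prone to russeting, in which the cuticle cracks and a corky layer with suberin and lignin takes its place. In Arabidopsis, MYB and NAC proteins control the genes for suberin, lignin, cutin and wax, WRKY, ERF and ZAT proteins are known for responses to wounding and pathogens, and HY5 and CONSTANS-like proteins act in light signalling.

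The tested fruit (T) were enclosed at 20 days after flowering (DAF) in paper bags of a double layer that keeps out light, and the control fruit (CK) stayed uncovered on the trees. Skin was sampled at DAF30 (T1 and CK1), DAF60 (T2 and CK2) and DAF150 (T3 and CK3), with 3 libraries in each of the 6 groups and the peel of 3 fruits mixed per sample. The skin was not separated into cell types, so fewer cells of a type and less RNA per cell cannot be told apart in any result below. Gene levels are FPKM, fragments scaled to the length of the gene and to the mapped fragments of the library, and positions are those of the GDDH13 v1.1 apple genome.

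The table holds only genes that passed the authors' own comparison of the bagged with the unbagged libraries, stages combined, so the differences between T and CK below describe genes already chosen for such a difference. A gene was tested if it had at least 1 FPKM in at least 3 libraries, which 1399 genes and 97 of the 185 members did. A member that passed through its high group alone had to differ between groups. Tests were made with limma on log2(FPKM + 1), and a member counted as called, here also written as passing, where the p-value adjusted over all 1399 genes was 0.05 or less. Errors of log2 fold changes are standard errors (SE). The fold changes below are on this log2 scale and understate the change of weakly expressed genes. Tested members averaged between 0.342 and 56.3 FPKM over the 18 libraries, with a median of 1.98 FPKM, against a median of 2.78 FPKM for all genes tested. Libraries of one group correlated at 0.855 to 0.974 over the tested members. CK1 replicate 1, CK2 replicate 1, CK3 replicate 2 and T3 replicate 1 were each the highest library of their group for the most members (48, 58, 58 and 49 of 97). The depth in fragments is not known from FPKM rounded to 2 decimals. Green tissue markers (17 genes of chlorophyll-binding proteins, photosystems and Rubisco) summed to 483 to 587 FPKM in T2, against 2263 to 4932 FPKM in CK2, and to 483 to 864 FPKM in T3, against 4215 to 5732 FPKM in CK3. At DAF30 the same markers overlapped, with 1743 to 4961 FPKM in T1 and 3060 to 3722 FPKM in CK1. Their part in the results below was not tested.

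At DAF30, 1 member was higher and 23 were lower in bagged skin, 24.7% of the members tested, where 14.4% of all genes tested were called. At DAF60, 2 were higher and 69 lower, which is 73.2% of the members and close to the 71.4% of all genes called. At DAF150, 11 were higher and 25 lower, 37.1% of the members, where 44% of all genes were called. Over the mean of the stages, 8 were higher and 81 lower, against 90.5% of all genes called. By direction, 2.07%, 9.51% and 12.6% of all genes were called higher at the 3 stages and 12.4%, 61.9% and 31.5% lower. The 3 T libraries lay wholly above the 3 CK libraries in 7, 6 and 11 members (6.43%, 11.2% and 12.7% of all genes) and wholly below in 38, 62 and 31 members (22.9%, 63.4% and 37.8% of all genes). At the stricter threshold of an adjusted p of 0.001 and a 2-fold change, 0, 22 and 5 members were called at the 3 stages and 11 over the mean, beside 0.143%, 31.2%, 20.1% and 21.7% of all genes. At DAF30, DAF60 and DAF150 the members had a median log2 fold change of -0.24, -1.08 and -0.34, beside -0.12, -1.06 and -0.37 for all genes tested. These counts depended on the scale used. With each library centred on its median, the members called higher and lower were 2 and 18 at DAF30, 11 and 2 at DAF60, and 15 and 6 at DAF150 where the median of all genes tested moved to 0.14, 0.10 and 0.096. With quantile normalization they were 2 and 5, 9 and 8, and 14 and 8. Both scalings set the typical gene of a library to a fixed level, and this table holds only selected genes, 2246 of 2856 with an authors' ratio below 0. The DAF30 count also rested on single libraries and was 11 without CK1 replicate 1 and 12 without T1 replicate 2, while the DAF150 count of 36 was 21 without CK3 replicate 1 and 20 without T3 replicate 2.

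The ERF, MYB, NAC, WRKY, C2H2 and homeobox families held calls at all 3 stages, and no difference between families was tested. The counts below stand beside 12.4%, 61.9% and 31.5% of all genes tested that were lower at DAF30, DAF60 and DAF150. At DAF30 the calls lay in the ERF family (4 of 10 tested members lower and 1 higher), bHLH (4 of 9 lower), MYB (4 of 15), NAC (3 of 13), WRKY (3 of 17) and C2H2 (2 of 10), with 1 homeobox gene, 1 trihelix gene and 1 AP2 gene. The CONSTANS-like, NF-Y, Dof, MADS, bZIP and CCCH families had 0 calls at DAF30 in limma among 16 tested members, of which 1, a Dof gene, had an unadjusted p under 0.05. At DAF60 the lower calls were 14 of 17 WRKY genes, 11 of 15 MYB, 10 of 13 NAC, all 4 CONSTANS-like, all 4 homeobox and all 3 NF-Y genes, against 5 of 10 ERF and 5 of 9 bHLH genes. At DAF150 all 3 NF-Y genes, both MADS genes, 3 of 4 CONSTANS-like and 7 of 17 WRKY genes were lower, while the ERF family had 3 higher and 0 lower and bHLH had 0 calls in either direction, with the same counts at an unadjusted p under 0.05. After median centring, the family medians at DAF60 came to -0.02 for WRKY, -0.10 for MYB, -0.12 for NAC and -0.67 for NF-Y, and turned to 0.58 for ERF (3 higher and 0 lower), 0.39 for bHLH, 0.24 for homeobox and 0.14 for C2H2 (3 higher and 0 lower). At DAF150 all 3 NF-Y genes were still lower after median centring, against 1 CONSTANS-like, 0 WRKY and 0 MADS genes, and 5 ERF genes were higher and 0 lower. With quantile normalization the lower calls at DAF150 were 3 NF-Y, 0 CONSTANS-like, 1 WRKY and 0 MADS genes. The family plot shows each member behind these counts.

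**Figure D1:**
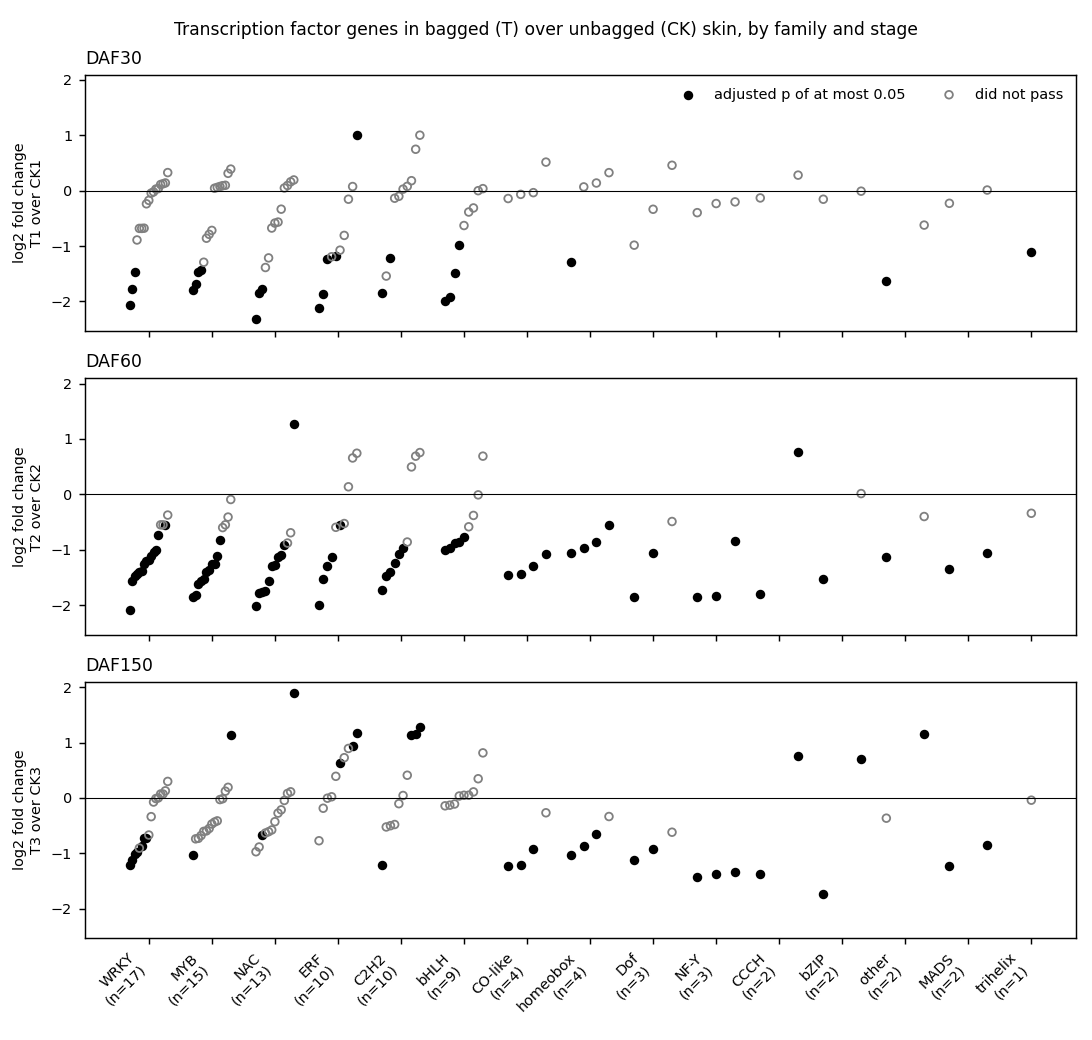
Log2 fold change of T over CK on the log2(FPKM + 1) scale (vertical axis) for each of the 97 tested members, by family (horizontal axis, number of tested members in brackets), in panels for DAF30, DAF60 and DAF150; filled points passed (adjusted p 0.05 or less) and open points did not. At DAF60 69 members are lower and 2 higher, and at DAF150 11 are higher.

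No member was called at all 3 stages (0 of 97). The largest class, 35 members, was lower at DAF60 alone, 24 were lower at DAF60 and DAF150, 10 at DAF30 and DAF60, and 11 at DAF30 alone. A further 2 were lower at DAF30 and higher at DAF150. These classes went with the stage at which the member was highest in unbagged skin. Of the 38 members with their highest CK mean at DAF30, 22 were lower in T at DAF30, 19 at DAF60 and 1 at DAF150. Of the 41 that peaked in CK2, 1 was lower at DAF30, 39 at DAF60 and 14 at DAF150. Of the 18 that peaked in CK3, 0 were lower at DAF30, 11 at DAF60 and 10 at DAF150. The same CK libraries set the peak and enter the comparison, so these counts describe the pattern and do not test it. Of all genes tested, 12.4%, 61.9% and 31.5% were lower at DAF30, DAF60 and DAF150. Classes and peaks were counted for the members alone, so the pattern may be that of the whole table. In bagged skin the peak stayed at DAF30 in 30 of the 38 and at DAF150 in 16 of the 18, but at DAF60 in 10 of the 41.

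The members reduced at DAF30 included several of the most abundant ones, whose level in unbagged skin was far lower by DAF150. WRKY53 (MD14G1123000, chromosome 14, 19736610 to 19738943, minus strand), known in Arabidopsis for leaf senescence, had 15.8, 8.61 and 26.2 FPKM in T1, against 88.55, 60.4 and 57.7 FPKM in CK1. Its libraries did not overlap at DAF30 (log2 -2.07 ± 0.51 SE, adjusted p = 0.013), but the call was lost without CK1 replicate 1 (log2 -1.87, adjusted p = 0.062) or T1 replicate 2 (log2 -1.68, adjusted p = 0.064). At DAF60 it had 2.78, 5.08 and 10.2 FPKM in T2, against 40.8, 13.6 and 31.6 FPKM in CK2 (log2 -2.09 ± 0.51 SE, adjusted p = 0.002), the largest fall of any member at that stage. By DAF150 it was at most 1.07 FPKM in T3 and 2.72 FPKM in CK3. ERF109-like (MD10G1094700), whose Arabidopsis counterpart responds to jasmonate and wounding, followed the same course. It had 32.6, 17.1 and 12.95 FPKM in T1 and 63.4, 82.2 and 76.0 FPKM in CK1 (log2 -1.87 ± 0.41 SE, adjusted p = 0.0085), and 3.49, 9.65 and 15.3 FPKM in T2 and 45.2, 25.0 and 40.1 FPKM in CK2 (log2 -1.99 ± 0.41 SE, adjusted p = 0.00059). Both calls held with each library left out in turn, and no library of T3 or CK3 exceeded 0.73 FPKM. The falls of both genes depended on the scale. After median centring and with quantile normalization, 0 and 0 of 10 ERF genes were called lower at DAF60, and 3 and 1 at DAF30. Of 17 WRKY genes, 0 and 1 were called lower at DAF60, and 2 and 0 at DAF30.

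Among other ERF genes, CRF4 (MD07G1284200), a cytokinin response factor, fell at DAF30. It had 11.8, 5.32 and 8.35 FPKM in T1, against 34.6, 34.6 and 47.8 FPKM in CK1 (log2 -2.12 ± 0.44 SE, adjusted p = 0.0068), a gap held with each library left out. At DAF60 its libraries overlapped, with 9.02, 16.8 and 17.1 FPKM in T2 and 35.6, 12.3 and 21.95 FPKM in CK2 (adjusted p = 0.23). ERF017-like (MD02G1096500) was lower at DAF60, with 15.95, 23.2 and 25.0 FPKM in T2 and 83.6, 42.6 and 69.3 FPKM in CK2 (log2 -1.53 ± 0.45 SE, adjusted p = 0.0065). At DAF30 its lower values did not pass (log2 -1.19 ± 0.45 SE, adjusted p = 0.086).

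NAC83, known in Arabidopsis as a repressor of vessel formation, is present as a pair on chromosomes 9 and 17. The chromosome 9 copy (MD09G1006400) had 38.9, 22.0 and 33.25 FPKM in T1, against 216, 68.8 and 96.9 FPKM in CK1, where CK1 replicate 1 stood far above the others. Its call (log2 -1.85 ± 0.47 SE, adjusted p = 0.015) was lost without CK1 replicate 1 (log2 -1.39, adjusted p = 0.09) or T1 replicate 2 (log2 -1.63, adjusted p = 0.064). The weaker chromosome 17 copy (MD17G1010300) had 1.81, 0.53 and 2.16 FPKM in T1 and 24.7, 8.07 and 6.35 FPKM in CK1 (log2 -2.33 ± 0.38 SE, adjusted p = 0.0026), the largest fall of any member at DAF30, and this held with each library left out. At DAF60 neither copy passed (adjusted p = 0.1 and 0.11).

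Members of the bHLH and homeobox families were lower at DAF30 as well. MYC2-like (MD14G1137200), a bHLH regulator of jasmonate responses, had 3.68, 2.75 and 2.29 FPKM in T1 and 13.6, 8.97 and 7.71 FPKM in CK1 (log2 -1.49 ± 0.30 SE, adjusted p = 0.0058), with no overlap. bHLH92-like (MD16G1208400) had 1.43, 0.96 and 1.03 FPKM in T1 and 29.3, 3.08 and 4 FPKM in CK1 (log2 -2.0 ± 0.49 SE, adjusted p = 0.013). CK1 replicate 1 was several times above the other CK1 libraries, and without it the log2 fold change was still called. bHLH66-like (MD02G1009200), a relative of Arabidopsis root hair regulators, was the most abundant member. It had 68.1, 33.0 and 41.1 FPKM in T1 and 162, 202 and 159.7 FPKM in CK1 (log2 -1.92 ± 0.49 SE, adjusted p = 0.015), lost without T1 replicate 2 (log2 -1.69, adjusted p = 0.065) or T1 replicate 3 (log2 -1.85, adjusted p = 0.0547), and its T2 and CK2 libraries overlapped (log2 -0.01 ± 0.49 SE, adjusted p = 0.99). HOX11-like (MD12G1055800), a homeodomain leucine zipper gene, was lower at both early stages, with 45.3, 32.4 and 35.7 FPKM in T1 and 92.05, 71.25 and 122 FPKM in CK1 (log2 -1.29 ± 0.30 SE, adjusted p = 0.01), and 25.1, 27.2 and 30.7 FPKM in T2 and 88.4, 40.0 and 57.2 FPKM in CK2 (log2 -1.06 ± 0.30 SE, adjusted p = 0.0051). Both of its calls held with each library left out, but they depended on the scale. After median centring and with quantile normalization, 0 and 0 of 4 homeobox genes were called lower at DAF60, and 1 and 0 at DAF30.

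WRKY40, a defence regulator in Arabidopsis, shows how single libraries weighed at DAF30. Its copy MD09G1224500 had 1.55, 1.57 and 3.95 FPKM in T1 and 16.5, 4.8 and 5.86 FPKM in CK1 (log2 -1.48 ± 0.43 SE, adjusted p = 0.029), and the call was lost without CK1 replicate 1 (log2 -0.98, adjusted p = 0.17), T1 replicate 1 (log2 -1.31, adjusted p = 0.099) or T1 replicate 2 (log2 -1.32, adjusted p = 0.11). The other tested copy (MD17G1223100) had 0.94, 0.36 and 1.7 FPKM in T1 and 16.6, 2.25 and 4.04 FPKM in CK1 (log2 -1.78 ± 0.57 SE, adjusted p = 0.0456). That call was lost in 11 of 18 refits that each left out 1 library, the weakest being without CK1 replicate 1 (log2 -1.07, adjusted p = 0.26).

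The tested Myb4-like genes, whose Arabidopsis counterpart represses phenylpropanoid genes, are 3 members on chromosomes 5, 9 and 17. MD05G1224100, MD10G1305700 and MD13G1213900 share the name but were too weak to test. The chromosome 9 copy (MD09G1098600) had 21.3, 7.52 and 15.1 FPKM in T1 and 81.3, 27.5 and 43.1 FPKM in CK1 (log2 -1.69 ± 0.40 SE, adjusted p = 0.011), lost without CK1 replicate 1 (log2 -1.29, adjusted p = 0.065) or T1 replicate 2 (log2 -1.31, adjusted p = 0.056). Its DAF60 fall, with 2.07, 3.13 and 2.06 FPKM in T2 and 10.3, 4.41 and 10.7 FPKM in CK2, held with each library left out (log2 -1.40 ± 0.40 SE, adjusted p = 0.0057). The chromosome 17 copy (MD17G1086700) kept a higher level at DAF60, 7.89, 13.2 and 7.23 FPKM in T2, against 58.2, 19.9 and 38.2 FPKM in CK2 (log2 -1.85 ± 0.44 SE, adjusted p = 0.0017). At DAF30 its lower values missed the threshold (log2 -1.29 ± 0.44 SE, adjusted p = 0.06). The chromosome 5 copy (MD05G1197600) fell at DAF30, with 3.96, 1.29 and 2.98 FPKM in T1 and 7.44, 11.2 and 8.22 FPKM in CK1 (log2 -1.47 ± 0.33 SE, adjusted p = 0.0088), and not at DAF60 (log2 -0.09 ± 0.33 SE, adjusted p = 0.81). A further gene of this repressor type (MD07G1153200) was lower at DAF60, with 1.66, 0.78 and 1.38 FPKM in T2 and 9.24, 4.2 and 5.2 FPKM in CK2 (log2 -1.62 ± 0.44 SE, adjusted p = 0.004).

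A second set of members was low in young skin, appeared in unbagged skin at DAF60 and stayed low under the bag. NAC100-like (MD08G1121300) had 0.29, 0.14 and 0.71 FPKM in T1 and 0.1, 0.1 and 0.49 FPKM in CK1. At DAF60 it had 2.2, 0.6 and 0.55 FPKM in T2, against 7.74, 12.7 and 3.49 FPKM in CK2 (log2 -2.03 ± 0.42 SE, adjusted p = 0.00065). At DAF150 the libraries overlapped, with 2.54, 1.3 and 1.21 FPKM in T3 and 4.25, 4.8 and 1.21 FPKM in CK3 (adjusted p = 0.25). Its copy on chromosome 15 (MD15G1100100) had 1.29, 0.22 and 0.58 FPKM in T2 and 4.69, 8.18 and 2.34 FPKM in CK2 (log2 -1.77 ± 0.42 SE, adjusted p = 0.0015).

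MYB39-like, named for the Arabidopsis MYB that switches on suberin genes in the root endodermis, is a pair on chromosomes 1 and 15. The chromosome 1 copy (MD01G1031700) had 0.12, 0.23 and 0.24 FPKM in T2, against 2.29, 4.37 and 0.33 FPKM in CK2 (log2 -1.26 ± 0.37 SE, adjusted p = 0.0066). The chromosome 15 copy (MD15G1323500) had 0.48, 0.21 and 0.15 FPKM in T2, against 1.98, 5.08 and 0.55 FPKM in CK2 (log2 -1.26 ± 0.36 SE, adjusted p = 0.0059). In both, CK2 replicate 2 was the highest and CK2 replicate 3 the lowest of its group, the T2 and CK2 libraries did not overlap, and at DAF150 neither passed (adjusted p = 0.13 and 0.21). RAX2-like (MD11G1146200), of the MYB group that starts axillary buds in Arabidopsis, had 1.66, 1.31 and 1.01 FPKM in T2 and 6.54, 8.42 and 3.56 FPKM in CK2 (log2 -1.57 ± 0.29 SE, adjusted p = 0.00027). RAX3-like (MD15G1063300) had 0.42, 0.21 and 0.25 FPKM in T2 and 2.08, 4.88 and 1.01 FPKM in CK2 (log2 -1.36 ± 0.33 SE, adjusted p = 0.0019). All of these DAF60 calls held with each library left out. They depended on the scale, since 0 of the 15 tested MYB genes were called lower at DAF60 after median centring. With quantile normalization 1 was.

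WRKY genes formed the largest part of the DAF60 set, with 11 of the 17 tested highest in CK2. WRKY24 has 3 members, and MD07G1131000 had 0.15, 0.27 and 0.23 FPKM in T2, against 2.76, 6.21 and 0.72 FPKM in CK2 (log2 -1.57 ± 0.37 SE, adjusted p = 0.0016). WRKY48 (MD16G1151000) had 0.15, 0.28 and 0.2 FPKM in T2 and 4.43, 2.1 and 1.23 FPKM in CK2 (log2 -1.47 ± 0.32 SE, adjusted p = 0.00093). WRKY71 (MD10G1266400) had 0.51, 0.52 and 0.54 FPKM in T2 and 3.11, 2.6 and 3.32 FPKM in CK2 (log2 -1.39 ± 0.25 SE, adjusted p = 0.00019), with no overlap between the groups. WRKY74 (MD04G1226400) was lower at DAF60 and DAF150 (-1.18 and -0.97 log2), the second call being lost without T3 replicate 2 (log2 -0.82, adjusted p = 0.0513). DOF3.7-like (MD02G1163500), a Dof zinc finger gene, was low in CK1 and abundant in CK2. It had 9.02, 8.27 and 4.56 FPKM in T2, against 32.4, 30.85 and 21.9 FPKM in CK2 (log2 -1.85 ± 0.29 SE, adjusted p = 7.6e-05), and 3.98, 2.53 and 5.21 FPKM in T3, against 9.83, 8.48 and 10.01 FPKM in CK3 (log2 -1.12 ± 0.29 SE, adjusted p = 0.0045). At DAF30 its T libraries were the higher ones, with 5.35, 5.39 and 4.91 FPKM in T1 and 3.82, 2.63 and 4.28 FPKM in CK1, without passing (adjusted p = 0.4). The WRKY and Dof falls depended on the scale. At DAF60, 0 of 17 WRKY genes were called lower after median centring and 1 with quantile normalization. Of 3 Dof genes, 0 were called lower at DAF60 or DAF150 after either rescaling.

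**Figure D2:**
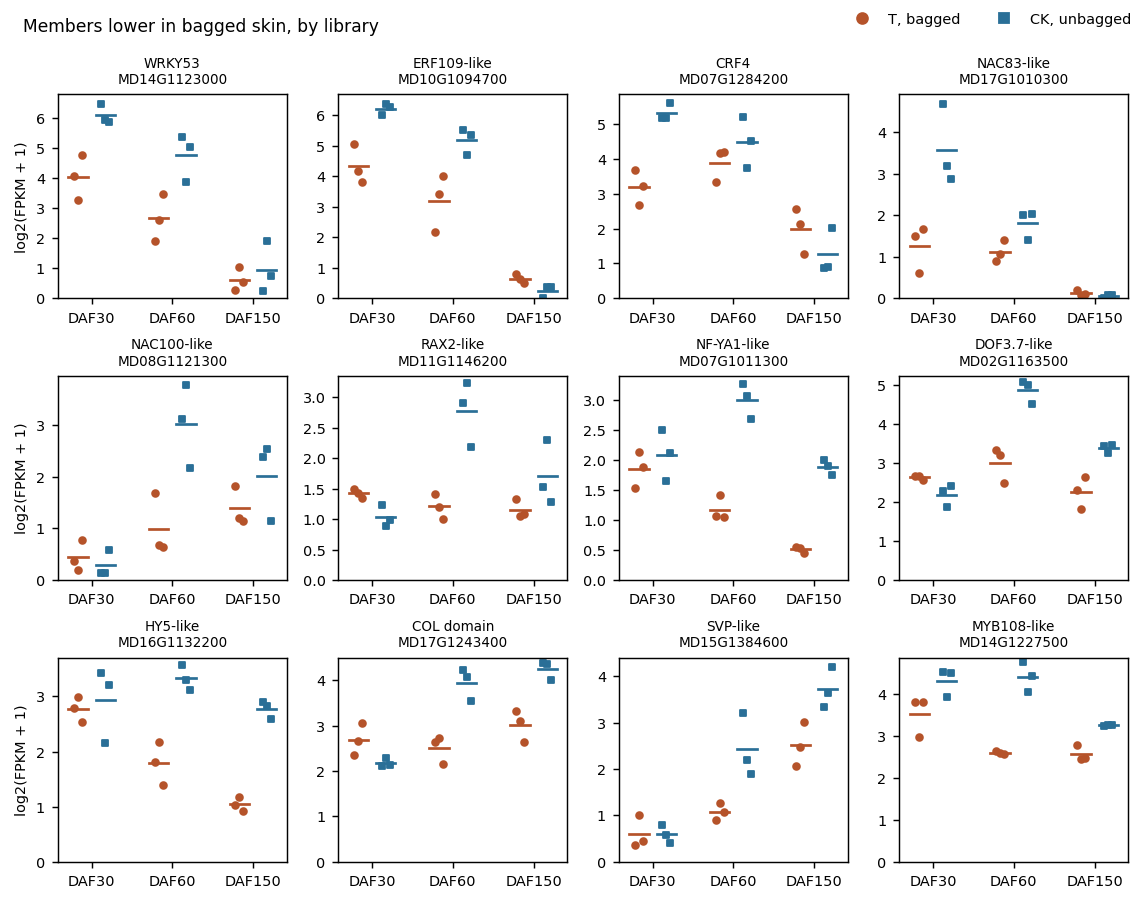
log2(FPKM + 1) of 12 members (vertical axis) at DAF30, DAF60 and DAF150 (horizontal axis) in T (circles) and CK (squares), 1 point for each of 3 libraries and a bar for their mean. The top row is highest in CK at DAF30 and separates there. The middle row separates at DAF60, and of the bottom row HY5-like, COL and SVP-like separate at DAF60 and DAF150.

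Most tested suberin, cutin and wax enzyme genes and most phenylpropanoid and lignin enzyme genes were lower at DAF60, where 61.9% of all genes tested were lower and 71.4% were called. The flavonoid genes had more lower calls at DAF150, where 31.5% of all genes were lower. Of 25 tested suberin, cutin and wax enzyme genes (34 in the table), 0 passed at DAF30 (1 higher at an unadjusted p under 0.05), 20 were lower and 3 higher at DAF60, and 3 were lower and 2 higher at DAF150. Of 35 tested phenylpropanoid and lignin enzyme genes, 2 were lower at DAF30, 25 lower and 6 higher at DAF60, and 7 lower and 7 higher at DAF150. Of 11 tested flavonoid genes, 1, 8 and 10 were lower at the 3 stages and 0 higher, also at an unadjusted p under 0.05. Over the 18 libraries, NAC100-like (MD08G1121300) followed the median log2 level of the suberin, cutin and wax enzymes with Pearson r = 0.96, RAX3-like (MD15G1063300) with 0.95 and WRKY74 (MD04G1226400) with 0.94. MYB39-like (MD01G1031700) followed it with 0.89. With the median of the phenylpropanoid and lignin enzymes these members, in the same order, had r = 0.92, 0.92, 0.88 and 0.89. Closeness to the suberin list was also not limited to them, as WRKY24 (MD01G1123900) had r = 0.94 with it. These correlations are descriptions over libraries of 6 groups that share stage, bagging and library, and they carry no test. Within CK2 the enzyme median was 3.54, 3.59 and 2.14 log2 units in replicates 1 to 3. The library with the lowest enzymes, replicate 3, was also the one with the lowest NAC100-like, RAX2-like, RAX3-like and MYB39-like. Replicate 3 was the lowest CK2 library for 44 of the 97 tested members, and replicate 2 for 46. It also had the lowest green tissue sum of CK2, 2263 FPKM, so its low values were not limited to these genes.

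**Figure D3:**
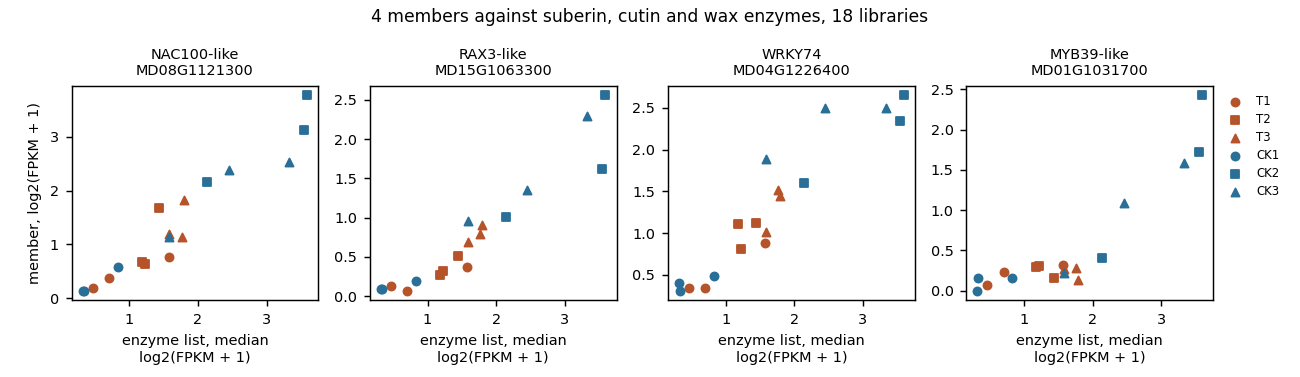
log2(FPKM + 1) of 4 members (vertical axis) against the median log2(FPKM + 1) of 25 suberin, cutin and wax enzyme genes (horizontal axis) in 18 libraries, coloured by T and CK with a symbol for each stage. CK2 and CK3 libraries reach the highest values on both axes, and T libraries lie at or below a median of 1.79 log2 units.

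NF-Y subunit A genes, which form the DNA-binding part of a factor for CCAAT boxes, were lower at both later stages, and all 3 remained called at DAF150 after either rescaling, against 1 of 3 at DAF60. NF-YA1-like (MD07G1011300) had 1.08, 1.65 and 1.06 FPKM in T2, against 8.53, 7.36 and 5.39 FPKM in CK2 (log2 -1.83 ± 0.26 SE, adjusted p = 4.4e-05). At DAF150 it had 0.47, 0.44 and 0.37 FPKM in T3, against 2.98, 2.74 and 2.34 FPKM in CK3 (log2 -1.37 ± 0.26 SE, adjusted p = 0.00041), and this change was -0.90 after median centring and -1.04 after quantile normalization. NF-YA10-like on chromosome 12 (MD12G1042100) had 0.37, 0.52 and 0.21 FPKM in T3 and 3, 2.58 and 2.48 FPKM in CK3, the smallest adjusted p of any member at DAF150 (log2 -1.44 ± 0.18 SE, adjusted p = 9.7e-06). Its chromosome 14 copy (MD14G1041300) had 0.52, 0.77 and 0.62 FPKM in T2 and 5.71, 9.22 and 2.05 FPKM in CK2 (log2 -1.86 ± 0.36 SE, adjusted p = 0.00036). None of the 3 passed at DAF30 (adjusted p of 0.79, 0.65 and 0.65).

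Light and clock regulators, 8 members of which 5 could be tested, had 0 calls at DAF30, also at an unadjusted p under 0.05, and were lower later. HY5-like (MD16G1132200), the bZIP gene that promotes light responses, had 5.9, 6.99 and 4.83 FPKM in T1 and 9.77, 3.46 and 8.23 FPKM in CK1 (adjusted p = 0.94). It had 2.51, 3.49 and 1.63 FPKM in T2, against 10.9, 8.86 and 7.62 FPKM in CK2 (log2 -1.54 ± 0.31 SE, adjusted p = 0.00057), and 1.04, 1.26 and 0.9 FPKM in T3, against 6.5, 6.13 and 5.02 FPKM in CK3 (log2 -1.73 ± 0.31 SE, adjusted p = 0.00025). Its change at DAF150 was -1.27 after median centring and -1.19 after quantile normalization. The COL gene on chromosome 17 (MD17G1243400), of the CONSTANS-like family with B-box zinc fingers, had 8.97, 7.55 and 5.23 FPKM in T3 and 19.9, 19.6 and 15.0 FPKM in CK3 (log2 -1.23 ± 0.29 SE, adjusted p = 0.0019). CONSTANS-LIKE 2-like (MD17G1087800) had 3.72, 5.98 and 4.31 FPKM in T2, against 20.9, 10.8 and 13.1 FPKM in CK2 (log2 -1.46 ± 0.30 SE, adjusted p = 0.00059). Of the 5 tested, all were lower at DAF60 and 4 at DAF150, where 61.9% and 31.5% of all genes tested were lower. After median centring 0 and 2 of the 5 passed. Green tissue markers were also far lower in T2 and T3, as given above.

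MYB108-like (MD14G1227500) is related to an Arabidopsis gene for responses to grey mould. It had 12.9, 6.88 and 13.0 FPKM in T1 and 21.9, 14.2 and 21.8 FPKM in CK1, which did not overlap but missed the threshold (log2 -0.79 ± 0.28 SE, adjusted p = 0.074). At DAF60 it had 5.21, 4.99 and 4.93 FPKM in T2, against 25.9, 15.5 and 20.6 FPKM in CK2 (log2 -1.81 ± 0.28 SE, adjusted p = 7.4e-05). At DAF150 it had 5.85, 4.5 and 4.54 FPKM in T3 and 8.47, 8.5 and 8.53 FPKM in CK3, again without overlap and without passing (log2 -0.68 ± 0.28 SE, adjusted p = 0.063). Its values lay below CK in all 3 T libraries at each stage, and the mean change over stages was -1.09 log2. At DAF60, 0 of the 15 tested MYB genes were called lower after median centring and 1 with quantile normalization. NAC2 (MD15G1136600), another abundant member, had 21.15, 7.5 and 28.45 FPKM in T2 and 88.3, 33.9 and 66.7 FPKM in CK2 (log2 -1.75 ± 0.53 SE, adjusted p = 0.0079), lost without T2 replicate 2 (log2 -1.22, adjusted p = 0.056).

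The members that stood highest at DAF150 in unbagged skin went both ways under the bag. Of 18 tested members whose CK mean was highest in CK3, 10 were lower and 6 higher in T3, and after median centring 2 were lower and 6 higher. These counts are a description, because the CK3 values chose the members. The 6 included NAC43-like, zinc finger protein 8-like and CRF2-like, described further on, and the 3 genes described here are among the 10. These 3 are MADS and C2H2 genes. After median centring or quantile normalization, 0 genes of either family were called lower at DAF150. Dormancy-associated MADS box 1 (MD15G1384500, chromosome 15, 47460406 to 47476439, minus strand) and its neighbour SVP-like (MD15G1384600, chromosome 15, 47494603 to 47520244, minus strand) belong to the MADS group known from bud dormancy in peach and apple. SVP-like had 0.86, 1.41 and 1.11 FPKM in T2, against 8.25, 3.56 and 2.73 FPKM in CK2 (log2 -1.35 ± 0.35 SE, adjusted p = 0.0027), and 3.16, 4.52 and 7.02 FPKM in T3, against 9.16, 11.4 and 17.5 FPKM in CK3 (log2 -1.22 ± 0.35 SE, adjusted p = 0.0084). Dormancy-associated MADS box 1 had 3.23, 4.64 and 5.78 FPKM in T3 and 9.96, 9.01 and 7.71 FPKM in CK3 (log2 -0.85 ± 0.28 SE, adjusted p = 0.019), lost without CK3 replicate 1 (log2 -0.78, adjusted p = 0.063) or T3 replicate 1 (log2 -0.67, adjusted p = 0.092). ZAT5-like (MD03G1128800), a C2H2 zinc finger gene, had 18.7, 9.63 and 9.61 FPKM in T3 and 40.7, 35.2 and 17.3 FPKM in CK3 (log2 -1.21 ± 0.36 SE, adjusted p = 0.012), lost without CK3 replicate 1 (log2 -0.98, adjusted p = 0.064) or T3 replicate 2 (log2 -1.06, adjusted p = 0.0531). The gene was higher at DAF150 than at DAF60 in both arms, by 2.61 log2 in T and 2.43 log2 in CK.

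Members higher in bagged skin were few and came from several families. WIN1-like (MD02G1030900), an ERF whose Arabidopsis counterpart raises cutin and wax synthesis, had 19.9, 10.5 and 21.6 FPKM in T1 and 10.3, 4.82 and 9.15 FPKM in CK1, the only higher call at DAF30 (log2 1.01 ± 0.33 SE, adjusted p = 0.0499). That call was lost in 15 of 18 refits that each left out 1 library, the weakest being without CK1 replicate 2 (log2 0.72, adjusted p = 0.18). At DAF60 it had 9.29, 7.43 and 5.47 FPKM in T2 and 4.03, 3.96 and 3.81 FPKM in CK2, without overlap and without passing (log2 0.74 ± 0.33 SE, adjusted p = 0.0537). At DAF150 it had 2.63, 1.82 and 0.94 FPKM in T3, against 0.27, 0.31 and 0.04 FPKM in CK3 (log2 1.17 ± 0.33 SE, adjusted p = 0.0078), which held with each library left out. In both arms it was lower at DAF150 than at DAF60 (-1.61 log2 in T and -2.04 log2 in CK), and at each stage the 3 T libraries lay above the 3 CK libraries.

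NAC43-like (MD06G1121400), named for the Arabidopsis NAC that starts secondary wall thickening in fibres, had the largest rise of any member at DAF60 and at DAF150. It had 0.11, 0.05 and 0.75 FPKM in T1 and 0.18, 0.06 and 0.09 FPKM in CK1. At DAF60 it had 3.43, 1.19 and 1.85 FPKM in T2, against 0.17, 0.34 and 0.25 FPKM in CK2 (log2 1.27 ± 0.37 SE, adjusted p = 0.0056). At DAF150 it had 29.1, 12.5 and 12.5 FPKM in T3, against 5.03, 5.32 and 1.86 FPKM in CK3 (log2 1.89 ± 0.37 SE, adjusted p = 0.00046), and both calls held with each library left out. Markers of xylem, the water-conducting tissue (14 genes), summed to 25.0 to 166 FPKM in T3, against 2.14 to 18.2 FPKM in CK3, and 0 of the 14 were at 0 in each T3 library. All 8 tested xylem markers were higher at DAF150. At DAF60 the same markers summed to 0.47 to 0.96 FPKM in T2, against 1.56 to 3.23 FPKM in CK2, and 0 of the 8 tested were called, also at an unadjusted p under 0.05, while NAC43-like was higher there. T3 replicate 1 had both the most NAC43-like and the highest marker sum. Whether the tissue sampled had a part in the DAF150 rise was not tested.

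In both zinc finger protein 2-like genes the 3 T libraries lay above the 3 CK libraries at each stage. MD00G1113500 had 36.0, 39.6 and 19.8 FPKM in T3, against 11.9, 14.1 and 10.3 FPKM in CK3 (log2 1.27 ± 0.35 SE, adjusted p = 0.0067), and its values at DAF30 and DAF60 did not pass (0.75 and 0.75 log2). MD13G1269700 had 13.0, 12.8 and 13.9 FPKM in T1 and 3.48, 9.69 and 6.48 FPKM in CK1 (log2 1.0 ± 0.35 SE, adjusted p = 0.065). It had 10.4, 13.2 and 5.64 FPKM in T3 and 2.88, 5.08 and 3.14 FPKM in CK3 (log2 1.15 ± 0.35 SE, adjusted p = 0.012), lost without CK3 replicate 1 (log2 1.03, adjusted p = 0.0507) or T3 replicate 2 (log2 0.92, adjusted p = 0.072). Zinc finger protein 8-like (MD14G1052700) had 4.94, 5.37 and 5.64 FPKM in T3 and 1.5, 2.3 and 1.91 FPKM in CK3 (log2 1.13 ± 0.25 SE, adjusted p = 0.0011). CRF2-like (MD14G1120000), a cytokinin response factor, had 6.75, 7.23 and 3.09 FPKM in T3 and 2.62, 1.81 and 2.68 FPKM in CK3 (log2 0.93 ± 0.29 SE, adjusted p = 0.014), lost without CK3 replicate 2 (log2 0.81, adjusted p = 0.061), T3 replicate 1 (log2 0.79, adjusted p = 0.058) or T3 replicate 2 (log2 0.75, adjusted p = 0.073). CCCH23-like (MD08G1075000) had 1.08, 1.29 and 2.06 FPKM in T2 and 0.32, 0.75 and 0.3 FPKM in CK2 (log2 0.76 ± 0.26 SE, adjusted p = 0.015), lost without T2 replicate 3 (log2 0.60, adjusted p = 0.073).

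A further pair of abundant members was lower at DAF30 and higher at DAF150. The Myb-like activator on chromosome 8 (MD08G1107400) had 53.1, 39.5 and 42.5 FPKM in T1, against 131, 107.25 and 128 FPKM in CK1 (log2 -1.42 ± 0.35 SE, adjusted p = 0.013), lost without CK1 replicate 1 (log2 -1.37, adjusted p = 0.0506). At DAF150, when it was nearly off, it had 3.41, 2.5 and 2.19 FPKM in T3, against 0, 0.77 and 1.64 FPKM in CK3 (log2 1.13 ± 0.35 SE, adjusted p = 0.014), lost without CK3 replicate 1 (log2 0.76, adjusted p = 0.096) or T3 replicate 1 (log2 1.00, adjusted p = 0.057). The AP2 gene (MD15G1193700) had 31.1, 22.3 and 22.7 FPKM in T1, against 104, 53.4 and 91.0 FPKM in CK1 (log2 -1.63 ± 0.42 SE, adjusted p = 0.015), lost without CK1 replicate 1 (log2 -1.44, adjusted p = 0.077), T1 replicate 2 (log2 -1.55, adjusted p = 0.0542) or T1 replicate 3 (log2 -1.56, adjusted p = 0.0547). At DAF150 it had 7.72, 8.54 and 2.2 FPKM in T3, against 1.23, 2.19 and 2.38 FPKM in CK3 (log2 1.16 ± 0.42 SE, adjusted p = 0.033), lost without CK3 replicate 1 (log2 0.97, adjusted p = 0.12), CK3 replicate 2 (log2 1.23, adjusted p = 0.057), T3 replicate 1 (log2 0.94, adjusted p = 0.13) or T3 replicate 2 (log2 0.87, adjusted p = 0.16). At DAF150 its libraries overlapped. For neither gene did the mean over stages pass (-0.30 and -0.29 log2).

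**Figure D4:**
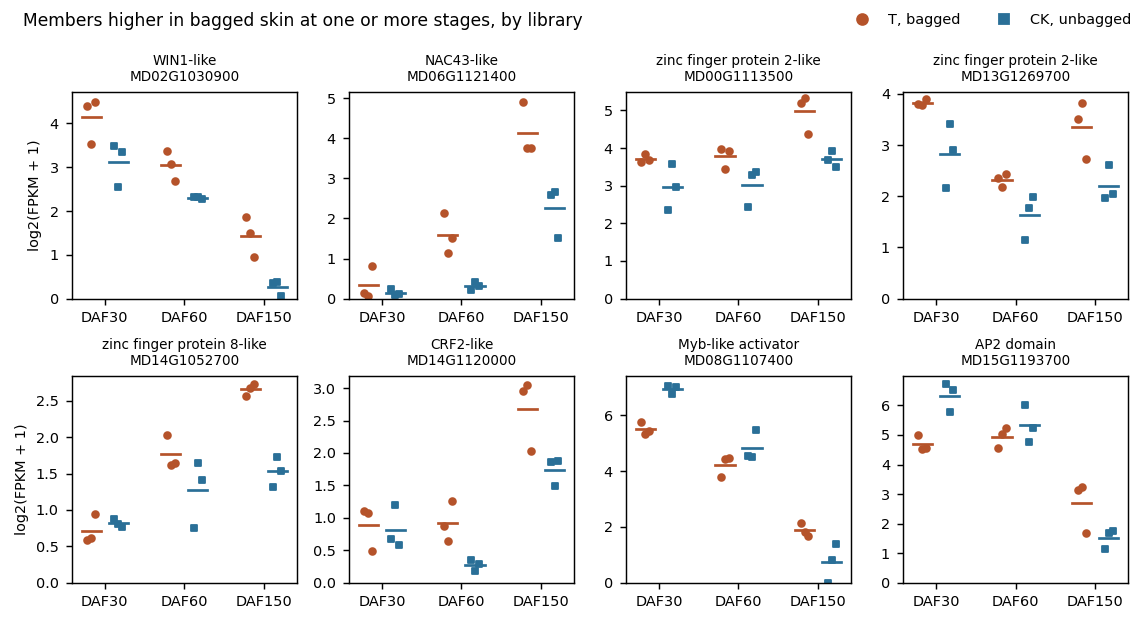
log2(FPKM + 1) of 8 members (vertical axis) at DAF30, DAF60 and DAF150 (horizontal axis) in T (circles) and CK (squares), 1 point for each of 3 libraries and a bar for their mean. At DAF150 the T libraries lie above the CK libraries in 7 of the 8 and overlap in the AP2 gene, and the Myb-like activator and the AP2 gene lie below CK at DAF30.

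The change between stages in T over CK was itself tested. From DAF30 to DAF60 it moved down in 33 members and up in 4, 38.1% of the members, where 43.3% of all genes tested did (37.2% down and 6.15% up), and from DAF60 to DAF150 up in 11 and down in 0, where 19.3% of all genes did (14.2% up and 5.15% down). The split at DAF60 against DAF30 depended on the scaling, since median centring gave 2 down and 27 up, with 6 of the 37 calls shared, and quantile normalization 4 down and 12 up. At an unadjusted p under 0.05, 26 moved up and 1 down between DAF60 and DAF150. DOF3.7-like (MD02G1163500) had the largest downward difference at DAF60 against DAF30 (log2 -2.31 ± 0.41 SE, adjusted p = 0.002), followed by NAC100-like (MD08G1121300, log2 -2.19 ± 0.60 SE, adjusted p = 0.011). NAC83-like (MD17G1010300) and bHLH66-like (MD02G1009200) moved up (1.63 and 1.91 log2). Leaving out 1 library ended the first of these without CK2 replicate 2 (log2 1.42, adjusted p = 0.056), T1 replicate 2 (log2 1.31, adjusted p = 0.065) or T2 replicate 3 (log2 1.49, adjusted p = 0.0549), and the other in 7 of 18 refits that each left out 1 library, the weakest being without CK2 replicate 2 (log2 1.58, adjusted p = 0.093). Upward differences at DAF150 against DAF60 were led by ERF017-like (MD02G1096500, log2 2.43 ± 0.64 SE, adjusted p = 0.014) and ERF109-like (MD10G1094700, log2 2.38 ± 0.58 SE, adjusted p = 0.01), both at low levels by DAF150. With the 4 libraries named above left out together, the counts were 20 and 1.

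Within each arm the members were also compared between stages. In CK, 35 were higher and 19 lower at DAF60 than at DAF30 (31.3% and 13.5% of all genes, 44.8% in all), and 8 were higher and 51 lower at DAF150 than at DAF60 (17.7% and 39.7%, 57.5% in all). After median centring the first of these splits turned to 20 higher and 37 lower, and with quantile normalization to 20 and 26, and the second came to 21 and 28, and to 16 and 30. In T, 2 were higher and 16 lower at DAF60 (5.86% and 21.2%, 27% in all), and 12 higher and 21 lower at DAF150 (18.2% and 16.2%, 34.4% in all). The 18 calls at DAF60 in T fell to 5 without T1 replicate 1, 7 without T2 replicate 1 and 9 without T2 replicate 2, and median centring gave 5 higher and 4 lower. Both arms lost the early ERF genes, with 7 of 10 lower at DAF150 than at DAF60 in T and in CK. ERF017-like (MD02G1096500) changed by -2.73 log2 in T and -5.16 log2 in CK. Of 17 WRKY genes, 0 were higher at DAF60 than at DAF30 in T, also at an unadjusted p under 0.05, and 8 in CK. After median centring these counts were 1 in T and 5 in CK, and with quantile normalization 1 and 4. Lower in CK was 1 WRKY gene, against 3 after median centring and 1 with quantile normalization. The difference between the arms is the stage change in T over CK tested above.

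Members that share a name allowed copies of a gene to be compared. Over the 18 libraries the MYB39-like pair correlated at 0.97 with a level ratio of 0.97 between the copies, and the NAC100-like pair at 0.96 with a ratio of 1.25. The NAC83 pair also followed one course (0.93), but the chromosome 9 copy averaged 14.3 times the FPKM of the other. ERF109-like (MD10G1094700) averaged 25.6 times its chromosome 15 namesake at a correlation of 0.94. The COL pair on chromosomes 9 and 17 correlated at 0.43, and the ZAT12-like genes on chromosomes 1 and 3 at -0.14. These values share libraries and stages and carry no test, and reads of near-identical copies may have been split between them. WRKY53 on chromosome 7 is listed as 2 genes (MD07G1285200 and MD07G1285400) with the same position and the same values, so the 97 tested members are 96 distinct ones.

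The remaining 88 members were too weak to test. Their highest library held 7.49 FPKM and the median of their highest values was 0.54 FPKM, and 75 of the 185 members averaged below 1 FPKM in all 6 groups. The highest were bHLH118-like (MD17G1237900) and bHLH36-like (MD09G1233000), with 0.5, 0.23 and 0.08 FPKM in T1 and 7.49, 0.72 and 1.21 FPKM in CK1 for the first, and 0.41, 0.58 and 0.19 FPKM in T1 and 5.15, 0.58 and 0.96 FPKM in CK1 for the second. Each rested on CK1 replicate 1. A second NAC43-like gene (MD14G1137900) had 2.19, 0.3 and 0.53 FPKM in T3 and 0.14, 0.01 and 0.04 FPKM in CK3, and MYB46-like (MD03G1176000), which acts below NAC43 in secondary walls of Arabidopsis, had 1.35, 0.12 and 0.52 FPKM in T3 and 0.05, 0.05 and 0 FPKM in CK3. In both T3 replicate 1 was the highest. WUSCHEL-related homeobox 4-like (MD15G1079000), of a gene active in the Arabidopsis cambium, had 0.53, 0.14 and 0.33 FPKM in T2 and 1.21, 2.63 and 0.28 FPKM in CK2. SPATULA-like (MD15G1079800), named for a bHLH gene of the Arabidopsis carpel, had 0, 0.08 and 0.02 FPKM in T2 and 0, 0.03 and 0.09 FPKM in CK2. None of these values carries a test, and the bHLH118-like, bHLH36-like and WUSCHEL-related genes, like RAX3-like above, were chosen after their values were seen.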

How the data were processed

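Skin RNA of 18 samples was sequenced on a BGISEQ-500. Filtered reads were mapped by the authors (Bowtie2, apple genome GDDH13 v1.1), who deposited FPKM per gene and library, rounded to 2 decimals; for the counting tool, none is named in the paper or labels. The deposited table also holds the authors' log2 ratio of all T over all CK and its q-value. Both were used only to find which genes it holds: all 2856 had a ratio of 1 or more in absolute value and a q-value no higher than 0.001, so the full gene set was not analysed here.

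Groups came from the sample labels. The sources do not say if each stage used the same trees (3 per arm), so p-values measure the spread between these samples. Genes reaching 1 FPKM in 3 or more libraries entered a fit with limma 3.58.1 (R 4.3.3) on log2(FPKM + 1), with 6 groups, trended and robust variance, 12 residual degrees of freedom and Benjamini-Hochberg adjustment over 1399 genes. The fit was tested on simulated data. Members and gene lists were chosen with earlier results of these data known. Members were named by size of change between T and CK without overlap, by size of change between stages, by level, or by a list of known regulators. The alternatives were other pseudocounts, filters, scalings, variance models, thresholds and subsets of libraries, and a replicate block. Enzyme and marker lists were taken by description, and a phloem list held 1 gene, at most 1.26 FPKM in any library.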

Additional observations from a re-analysis of the deposited data

Results flagged for a closer look

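The effect of bagging differed between stages in 36 of the comparisons made for named members, by the interaction terms of the limma fit (adjusted p of at most 0.05). Both stage differences were tested for 69 named members. Some were named because these differences were large, so the counts are partly set by that choice. Of all genes tested, 43.3% differed at DAF60 against DAF30 and 19.3% at DAF150 against DAF60. Values are the log2 fold change of T over CK at the later stage minus that at the earlier one.

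At DAF60 against DAF30, 29 named members differed, 25 downward and 4 upward. The furthest down were DOF3.7-like (MD02G1163500) -2.31, NAC100-like (MD08G1121300) -2.19, RAX2-like (MD11G1146200) -1.96, COL gene (MD17G1243400) -1.96, NAC100-like (MD15G1100100) -1.86, CCCH20-like (MD02G1069500) -1.67, ZAT12-like (MD07G1192900) -1.66, NF-YA1-like (MD07G1011300) -1.60 and WRKY24 (MD07G1131000) -1.59. The next were NF-YA10-like (MD14G1041300) -1.46, NAC77-like (MD14G1001200) -1.46, HY5-like (MD16G1132200) -1.38, SVP-like (MD15G1384600) -1.36, MYB39-like (MD01G1031700) -1.36, WRKY50 (MD08G1067700) -1.34 and MYB39-like (MD15G1323500) -1.33. The smallest were CONSTANS-LIKE 2-like (MD17G1087800) -1.32, WRKY74 (MD04G1226400) -1.30, WRKY48 (MD16G1151000) -1.29, ZAT12-like (MD01G1123300) -1.28, CONSTANS-LIKE 2-like (MD09G1099500) -1.22, WRKY24 (MD01G1123900) -1.22, WRKY71 (MD10G1266400) -1.16, MYB108-like (MD14G1227500) -1.03 and WRKY71 (MD17G1138100) -0.78. The upward differences were bHLH66-like (MD02G1009200) 1.91, NAC83-like (MD17G1010300) 1.63, Myb-like (MD15G1088000) 1.38 and Myb4-like (MD05G1197600) 1.37. 

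At DAF150 against DAF60, 7 named members differed, each upward: ERF017-like (MD02G1096500) 2.43, ERF109-like (MD10G1094700) 2.38, Myb4-like (MD17G1086700) 1.97, Myb-like (MD08G1107400) 1.73, ERF3-like (MD05G1204300) 1.32, NAC77-like (MD14G1001200) 1.12 and ZAT12-like (MD07G1192900) 0.98. The libraries of DAF60 enter both sets of differences, so a gene that stands in both is not 2 independent results. With each library left out in turn, 12 of the 29 and 2 of the 7 kept their call every time. Median centring kept the call of 2 of the 25 downward, all 4 upward and 1 of the 7 later differences, and over all tested members it turned DAF60 against DAF30 to 27 up and 2 down.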

How the results depend on the processing

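With each library left out in turn, the members called ranged from 11 to 32 (T over CK at DAF30), 59 to 76 (DAF60), 20 to 46 (DAF150), 83 to 92 (mean of stages), 21 to 44 (DAF60 minus DAF30), 3 to 22 (DAF150 minus DAF60), 45 to 56 (CK2 over CK1), 50 to 63 (CK3 over CK2), 5 to 22 (T2 over T1) and 27 to 36 (T3 over T2). Beyond those named above, the count for DAF60 minus DAF30 was 21 without T2 replicate 3, T2 over T1 gave 5, 7 and 9 without T1 replicate 1, T2 replicate 1 or T2 replicate 2, and DAF150 minus DAF60, 11 in all, gave 3 to 22 in 7 of the refits. Median centring gave 13, 21 and 16 calls at DAF60, at DAF150 and over the mean, 3 for DAF150 minus DAF60 and 9 for T2 over T1, and turned DAF60 minus DAF30 to 27 higher and 2 lower and CK2 over CK1 to 20 higher and 37 lower. Quantile normalization gave 7, 17, 22 and 17 for the 3 stages and the mean, 16 for DAF60 minus DAF30 and 3 for DAF150 minus DAF60. Without the filter 185 members were tested, with 112 calls at DAF60, 136 over the mean, 18 for DAF150 minus DAF60 and 92 for CK2 over CK1. A pseudocount of 0.1 gave 13 calls at DAF30 and 7 for DAF150 minus DAF60. A fit of the compared libraries alone gave 13 at DAF30 and 22 at DAF150, and was not possible for the mean of stages, which needs all libraries. The stricter threshold (adjusted p of at most 0.001, fold of at least 2) left 0, 22, 5 and 11 calls for the 3 stages and the mean, 0 and 0 for the stage differences (unadjusted p under 0.05 in 42 members at DAF30, 44 and 27 for the differences), and 16, 29, 1 and 14 for the stages within CK and within T. Leaving out CK1 replicate 1, CK2 replicate 1, CK3 replicate 2 and T3 replicate 1 together, chosen after seeing the data, gave 11 at DAF30, 20 at DAF150, 20 for DAF60 minus DAF30 and 1 for DAF150 minus DAF60.

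For the mean change of the 69 named tested members, median centring turned the sign of 19: 0.0454 for ZAT12-like (MD01G1123300), 0.0041 for WRKY24 (MD01G1123900), 0.0261 for WRKY53 (MD01G1215300), 0.021 for bHLH66-like (MD02G1009200), 0.0153 for ERF017-like (MD02G1096500), 0.057 for WRKY35 (MD03G1292900), 0.17 for Myb4-like (MD05G1197600), 0.025 for ZAT12-like (MD07G1192900), 0.24 for WRKY53 (MD07G1285200), 0.24 for WRKY53 (MD07G1285400), 0.39 for WRKY50 (MD08G1067700), 0.33 for Myb-like (MD08G1107400), 0.0853 for CONSTANS-LIKE 2-like (MD09G1099500), 0.0491 for RAX2-like (MD11G1146200), 0.14 for WRKY18-like (MD15G1039600), 0.34 for AP2 gene (MD15G1193700), 0.0347 for MYB39-like (MD15G1323500), 0.15 for WRKY71 (MD17G1138100) and 0.0077 for WRKY40 (MD17G1223100). Quantile normalization turned 9: 0.18 for bHLH66-like (MD02G1009200), 0.12 for ERF017-like (MD02G1096500), 0.0545 for Myb4-like (MD05G1197600), 0.15 for CRF4 (MD07G1284200), 0.50 for Myb-like (MD08G1107400), 0.0303 for RAX2-like (MD11G1146200), 0.60 for AP2 gene (MD15G1193700), 0.0748 for WRKY40 (MD17G1223100) and 0.0673 for COL gene (MD17G1243400). The pseudocount of 0.1 turned Myb-like (MD08G1107400) to 0.10. The remaining settings turned none of the 69.

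The replicate numbers are shared between groups, and the deviations of same-numbered T and CK libraries correlated over 0.1 in 5 of 9 pairs (0.018, 0.128 and 0.11 at DAF30, -0.347, -0.069 and 0.146 at DAF60, and 0.175, 0.124 and -0.075 at DAF150), and across stages within an arm in 6 of 18 (-0.197 to 0.394), against 9 of 36 for other numbers (-0.411 to 0.235). Other-numbered T and CK libraries within a stage ranged from -0.399 to 0.436. Not every same-numbered pair was over 0.1, so the numbers were not taken to pair the samples. That rule does not exclude a pairing. With the replicate number as a block the calls were 25, 74, 38 and 89 for the 3 stages and the mean, and 40 and 13 for the stage differences. With it 4 calls were lost and 19 gained over the 10 comparisons, and for the mean change no call of the 69 named members changed. The cause of these changes was not tested. The depth is unknown, so a low FPKM could not be given a counting error.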
